A study of Mus musculus with 48 samples.

Results

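The membrane adenylyl cyclases are the enzymes that make cyclic AMP from ATP at the cell membrane. The 9 genes Adcy1 to Adcy9 were taken by symbol from the deposited gene counts, where they are 9 of 50763 genes, and all 9 were present in each of the 4 tables. RNA sequencing had been run on 48 libraries of primary mouse cells in 16 groups of 3. Brain astrocytes carried 1 copy of the Gαs*-BERKY3 allele, their donor mice being heterozygous, and lung fibroblasts likewise carried 1 copy of Gαi*-BERKY3, Gαq*-BERKY3 or Gα13*-BERKY3. Each allele carries a G protein biosensor that Cre recombinase switches on. The cells are called Gas astrocytes and Gai, Gaq and Ga13 fibroblasts below. Every line was sampled in 4 groups. Cells with the Cre virus (AAV2/1-CMV-Cre) and agonist, Cre virus without agonist, empty virus (AAV2/1-CMV-empty) with agonist, and empty virus without agonist made up these groups. Agonist was given for 90 min, as 1 µM isoproterenol, a β-adrenergic agonist, on astrocytes and as 100 µM TRAP-6, a peptide agonist of the thrombin receptor PAR1, on fibroblasts. All cells carried the biosensor allele and had polybrene and a virus, so an effect of Cre itself and an effect of the biosensor cannot be told apart. The virus was diluted 1:500 on astrocytes and 1:1000 on fibroblasts. A medium change at 90 min is recorded for all 48 libraries, with or without agonist. Cell type, tissue, mouse line with its allele, virus dilution and agonist change together, so isoproterenol and TRAP-6 were not compared.

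Receptors coupled to Gs switch the cyclases on through the Gαs subunit, and receptors coupled to Gi hold several of them back. The isoforms differ in what else they sense. Adcy1, Adcy3 and Adcy8 form the group linked to calmodulin and calcium, Adcy2, Adcy4 and Adcy7 are raised by the Gβγ subunits, Adcy5 and Adcy6 are inhibited by calcium and by Gαi, and Adcy9 stands apart by its poor response to forskolin. In brain Adcy1 and Adcy8 are best known from neurons and synaptic plasticity, Adcy5 from the striatum, and Adcy3 from olfactory neurons and primary cilia. Adcy6 is well known from heart and kidney, and Adcy7 is prominent in blood cells.

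Depth was 16310712 to 35879229 counts per library in Gas astrocytes, 15606007 to 27023584 in Gai, 16340789 to 32710883 in Gaq and 17414010 to 42564149 in Ga13 fibroblasts. Levels are given as CPM, counts scaled to a library total of 1000000. The biosensor transcript stood at 19.1 to 27.3 CPM with the Cre virus in astrocytes, against 0 to 0.183 CPM with the empty virus. In the fibroblast lines it stood at 74.3 to 137 CPM with the Cre virus, against 0.0521 to 1.05 CPM with the empty virus. Astrocyte markers summed to 8858 to 9728 CPM in the astrocyte cultures, with 9 of 9 markers above 1 CPM on average, and fibroblast markers to 28144 to 49333 CPM in the fibroblast cultures. The astrocyte cultures also held markers of oligodendrocyte lineage cells at 788 to 997 CPM, of neurons at 108 to 139 CPM, of ependymal cells at 367 to 424 CPM, of microglia at 142 to 163 CPM and of fibroblasts at 1574 to 2005 CPM. Smooth muscle and pericyte markers summed to 2470 to 2782 CPM there, mostly from Acta2, at a median of 2066 CPM. In such bulk libraries fewer cells of a type and less RNA per cell cannot be told apart. The labels number the replicates without saying whether they came from separate animals or cultures, so the p-values measure the spread between these samples, which may be technical.

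Levels of different isoforms were set side by side only after division by exon length in kilobases, as CPM per kb. At rest, with the empty virus and no agonist, Adcy6 was the highest cyclase of the astrocytes at 13.2 ± 0.987 CPM per kb (SD, n = 3). Adcy2 followed at 8.51 ± 0.176, Adcy3 at 4.21 ± 0.236, Adcy9 at 4.03 ± 0.217 and Adcy1 at 3.14 ± 0.359 CPM per kb. Below these came Adcy5 at 2.37 ± 0.108, Adcy8 at 1.91 ± 0.109 and Adcy7 at 1.84 ± 0.130 CPM per kb, and Adcy4 was last at 0.0918 ± 0.0335 CPM per kb. In this order Adcy3 and Adcy9 overlapped between libraries, and so did Adcy8 and Adcy7, while the other neighbours did not.

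The fibroblasts had the same leading isoform as the astrocytes and another one in the next place. Adcy6 led with 15.5 CPM per kb in Gai, 18.0 in Gaq and 17.3 in Ga13 fibroblasts at rest, and Adcy7 came second with 7.96, 14.9 and 10.1 CPM per kb in the same order of lines. Adcy3 ranked next at 5.78, 7.15 and 6.52 CPM per kb, followed by Adcy2 at 5.30, 4.55 and 5.35 CPM per kb, their ranges overlapping in Gai fibroblasts alone. Adcy9 and Adcy1 came next, with overlapping ranges in Gai and Ga13 fibroblasts. In Gaq fibroblasts Adcy1, at 1.51 CPM per kb, overlapped with Adcy5, at 1.23 CPM per kb. Adcy5 stayed at or under 1.23 CPM per kb, Adcy4 at or under 0.598 and Adcy8 at or under 0.0608 CPM per kb as means of the 3 resting groups.

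**Figure D1:**
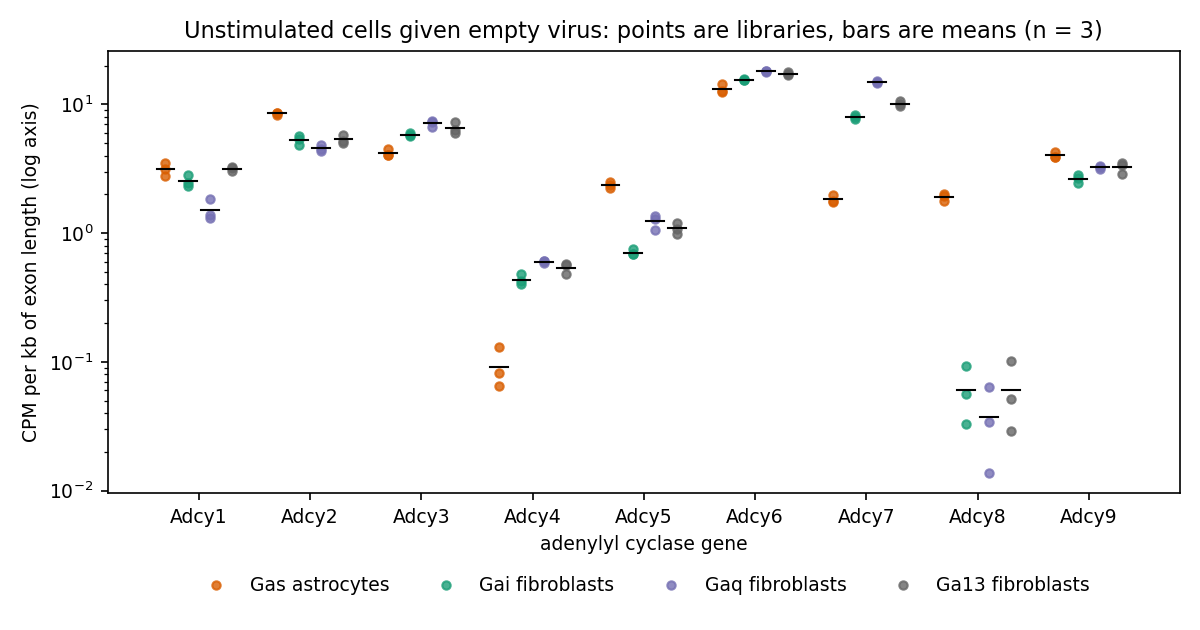
Level of each cyclase in CPM per kb of exon (log axis) in unstimulated cells with the empty virus, 1 point per library and 3 libraries per line. Adcy6 is highest in all 4 lines, Adcy2 is next in Gas astrocytes and Adcy7 next in the 3 fibroblast lines, and Adcy8 lies near 1.91 CPM per kb in astrocytes and at or under 0.101 CPM per kb in fibroblast libraries.

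The first, second and last places held over the treatments. Adcy6 ranked first in 12 of 12 astrocyte libraries and in 36 of 36 fibroblast libraries. Adcy2 ranked second in 12 of 12 astrocyte libraries, and Adcy7 second in 36 of 36 fibroblast libraries, although it was 8th in 11 astrocyte libraries. Adcy3 was the third in 35 of 36 fibroblast libraries and in 8 of 12 astrocyte libraries, Adcy9 being the third in the other 4. The middle places changed, and of the fibroblast libraries Adcy9 was above Adcy1 in 24 and below it in 12. The bottom place belonged to Adcy4 in 12 of 12 astrocyte libraries and to Adcy8 in 36 of 36 fibroblast libraries.

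As shares of the summed cyclase level per length, Adcy6 made up 33.5% of the resting astrocyte total, and 38.0% in Gai, 35.1% in Gaq and 36.5% in Ga13 fibroblasts. Adcy2 gave 21.7% in astrocytes, against 12.9%, 8.89% and 11.3% in the same 3 fibroblast lines. Adcy7 gave 4.68% in astrocytes, against 19.4%, 29.1% and 21.3%. Added up by regulation, the calcium- and Gi-inhibited pair Adcy5 and Adcy6 held 39.5% in astrocytes, against 39.7%, 37.5% and 38.8% in the fibroblast lines. The Gβγ-stimulated group held 26.6% in astrocytes, against 33.4%, 39.1% and 33.7%, the largest share of it being Adcy2 in astrocytes and Adcy7 in each fibroblast line. The calmodulin-linked group held 23.6% in astrocytes, against 20.4%, 17.0% and 20.6%, and Adcy9 held 10.3%, against 6.45%, 6.36% and 6.86%. Between the cell types the Gβγ-stimulated share differed by less than the shares of Adcy2 and Adcy7 within it, a description of means with no test.

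**Figure D2:**
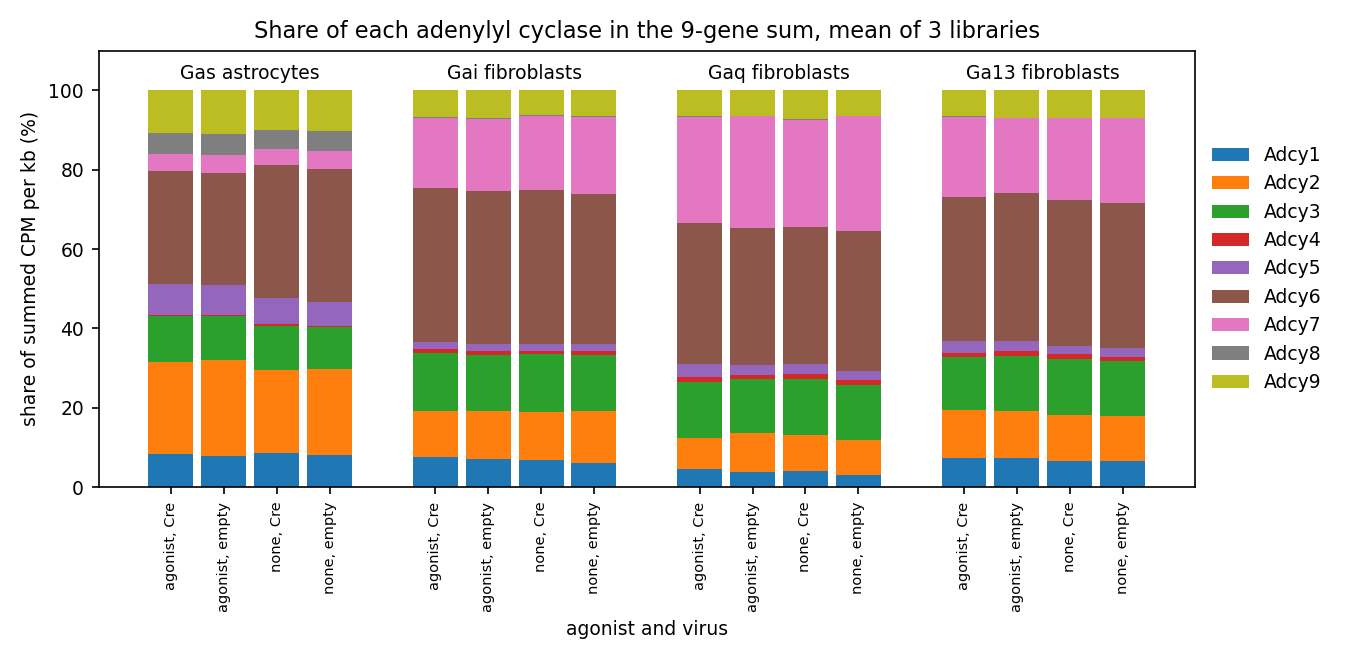
Share of each isoform, in percent, in the summed cyclase level per kb of exon, as the mean of 3 libraries for each of the 16 groups. Adcy6 is the largest segment in all 16 groups, Adcy2 is wide in the Gas astrocyte groups and Adcy7 in the fibroblast groups, with its widest segments in the Gaq line.

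The resting astrocytes were then set against the mean of the 3 resting fibroblast lines in one fit over all 48 libraries (edgeR's quasi-likelihood test with Benjamini-Hochberg adjustment over 19316 genes). In it 7 of 9 cyclases passed an adjusted p of 0.05, in a comparison where 80.1% of all genes did. The share is close to that background, so the sizes say more than the count. Cell type, tissue, mouse line with its allele and virus dilution are the same contrast here and cannot be told apart. The fits below use counts scaled for library composition, and in this comparison that scaling decides where zero lies. The median gene differed by 0.09 on the log2 scale with composition scaling, and by 0.58 with total counts alone, a shift of 0.49. CPM values of the next sentences are scaled by total counts alone.

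Adcy8, a calcium-stimulated isoform, had 16.3, 15.9 and 14.6 CPM in the 3 resting astrocyte libraries, against 0.111 to 0.825 CPM in the 9 resting fibroblast libraries, where 2 to 24 reads were counted. The groups were far apart, and the log2 difference was 4.69 ± 0.21 (SE; edgeR adjusted p = 2.99e-27). Neuronal, oligodendrocyte and ependymal markers are part of the same astrocyte cultures, at the levels given above. In the fibroblast libraries the neuronal list summed to 0.184 to 1.65 CPM and the ependymal list to 0.256 to 1.59 CPM. The oligodendrocyte list summed to 319 to 483 CPM there, mostly from Pdgfra, at line medians of 328 to 356 CPM. Their part in the Adcy8 level was not tested.

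Adcy7 showed the reverse, with 11.8, 12.0 and 13.4 CPM in resting astrocytes, against 51.5 to 102 CPM in the 9 resting fibroblast libraries. The log2 difference was -3.02 ± 0.08 (edgeR adjusted p = 5.13e-39). Adcy4, a Gβγ-stimulated isoform, had 0.301 to 0.603 CPM in astrocytes on 5 to 13 reads, against 1.87 to 2.84 CPM in fibroblasts. Both were low, and the difference was -2.94 ± 0.27 (edgeR adjusted p = 9.1e-15).

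Adcy5 had 16.2, 17.8 and 17.0 CPM in resting astrocytes, against 4.90 to 9.68 CPM in the fibroblast libraries, a log2 difference of 0.77 ± 0.11 (edgeR adjusted p = 3.12e-09). Adcy2 had 36.3, 35.0 and 36.2 CPM in astrocytes, against 18.2 to 24.5 CPM in fibroblasts, with no overlap, and its fitted difference was 0.26 ± 0.07 (edgeR adjusted p = 0.000365). Adcy3 had 25.4, 25.4 and 28.0 CPM in astrocytes, against 35.4 to 46.1 CPM in fibroblasts, a log2 difference of -1.11 ± 0.06 (edgeR adjusted p = 2.45e-23). Adcy6 had 84.8, 85.9 and 96.9 CPM in astrocytes, against 104 to 123 CPM in fibroblasts, a difference of -0.86 ± 0.05 (edgeR adjusted p = 3.02e-22), and neither pair of groups overlapped. These 7 differences kept their signs with total counts alone, where Adcy6 stood at -0.36 and Adcy3 at -0.62.

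Adcy9 and Adcy1 did not pass the test, at -0.08 ± 0.09 (edgeR adjusted p = 0.407) and -0.04 ± 0.14 (adjusted p = 0.803). For these a direction cannot be given, since both turned positive and passed with total counts alone, at 0.41 for Adcy9 and 0.46 for Adcy1. In CPM, Adcy9 had 20.2 to 22.2 in resting astrocytes, against 12.6 to 18.1 in resting fibroblasts. Adcy1 had 35.0 to 43.9 CPM in astrocytes, against 16.3 to 40.7 CPM in fibroblasts, and the groups overlapped.

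Resting fibroblasts of different lines were not alike. In a test over the 3 lines (edgeR's quasi-likelihood F test on 2 degrees of freedom, Benjamini-Hochberg over 16749 genes), 6 of 9 cyclases differed, where 34.7% of all genes did. A line is also a separate set of mice and cultures, so the allele and the preparation cannot be told apart. Macrophage markers differed as well, at 141 to 197 CPM in Gai, 73.4 to 93.0 CPM in Gaq and 56.0 to 71.1 CPM in Ga13 fibroblasts. Smooth muscle and pericyte markers summed to 3215 to 4044 CPM in Gai, 1815 to 2301 in Gaq and 2721 to 3424 in Ga13 fibroblasts, and endothelial markers to 14.0 to 19.0, 6.67 to 12.9 and 5.11 to 7.95 CPM. Fibroblast markers summed to 28144 to 41839 CPM in Gai, 36600 to 47150 in Gaq and 46124 to 49333 in Ga13 fibroblasts. The part of these markers in the differences between lines was not tested.

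Adcy7 separated all 3 lines. It had 53.4, 56.0 and 51.5 CPM in resting Gai fibroblasts, 99.7, 99.4 and 102 CPM in Gaq and 67.4, 64.8 and 71.8 CPM in Ga13 fibroblasts, with no overlap between any of them. Against Ga13 fibroblasts the log2 difference was -0.34 ± 0.06 in Gai (edgeR adjusted p = 2.73e-05) and 0.50 ± 0.06 in Gaq (adjusted p = 2.74e-08). Between Gai and Gaq fibroblasts it was -0.84 ± 0.06 (edgeR adjusted p = 4.34e-15).

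Adcy1 was low in Gaq fibroblasts. Its level was 35.2, 28.9 and 30.7 CPM in Gai, 16.3, 17.3 and 23.0 CPM in Gaq and 40.7, 38.0 and 40.1 CPM in Ga13 fibroblasts. The difference from Ga13 was -1.11 ± 0.18 in Gaq fibroblasts (edgeR adjusted p = 0.000162), and Gai stood 0.79 ± 0.19 above Gaq (adjusted p = 0.00184). Adcy5 was low in Gai fibroblasts, with 4.92, 4.90 and 5.38 CPM, against 7.64, 9.23 and 9.68 CPM in Gaq and 7.75, 7.08 and 8.67 CPM in Ga13 fibroblasts. The log2 difference was -0.62 ± 0.16 from Ga13 (edgeR adjusted p = 0.00204) and -0.75 ± 0.16 from Gaq (adjusted p = 0.000206). The calls for Adcy1, Adcy5 and Adcy7 over the 3 lines held in all 9 fits that left out 1 library.

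The other differences between lines were small. Adcy6 had 105, 107 and 104 CPM in resting Gai, 123, 123 and 120 CPM in Gaq and 121, 116 and 115 CPM in Ga13 fibroblasts. Adcy3 had 35.7, 37.2 and 35.4 CPM in Gai, 41.9, 46.1 and 45.9 CPM in Gaq and 45.4, 37.1 and 39.8 CPM in Ga13 fibroblasts. For both, Gai libraries lay lowest, apart from those of Gaq, and for Adcy3 the lowest Ga13 library lay within the Gai range. Adcy2 had 24.1, 22.7 and 20.2 CPM in Gai, 20.2, 19.1 and 18.2 CPM in Gaq and 21.2, 21.9 and 24.5 CPM in Ga13 fibroblasts, and all Gaq libraries lay below the others, if only just below the lowest of Gai. It was -0.29 ± 0.09 in Gaq against Ga13 (edgeR adjusted p = 0.0335) and 0.29 ± 0.09 in Gai against Gaq (adjusted p = 0.0123). Over the 3 lines Adcy2 had an adjusted p of 0.0102, Adcy3 of 0.0165 and Adcy6 of 0.0301 by the edgeR F test. Adcy2 was lost without replicate 3 of the resting Gaq group, and Adcy3 without replicate 1 or replicate 3 of the resting Gai group. Adcy6 was lost without either of the same 2 Gai libraries or without replicate 1 of the resting Ga13 group. By pairs, 4 of 9 cyclases differed between Gai and Ga13 fibroblasts, where 28.5% of all genes did, and the count fell to 2 without replicate 1 of the resting Gai group. Gaq and Ga13 fibroblasts differed in 3 of 9, where 6.38% of all genes did, and Gai and Gaq in 6 of 9, where 31.6% did. Adcy4, Adcy8 and Adcy9 did not pass the test over the 3 lines, with adjusted p of 0.363, 0.499 and 0.0739. By pairs Adcy9 was called lower in Gai than in Ga13 fibroblasts, beside Adcy5, Adcy6 and Adcy7. That call was lost in 4 of 6 fits that left out 1 library.

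The question put by the agonist is whether stimulation of the receptors was followed by a change in the cyclases' own transcripts. In Gas astrocytes isoproterenol lowered Adcy6 and raised Adcy5, the 2 closely related isoforms that calcium and Gαi inhibit. Averaged over both viruses, 2 of 9 cyclases passed (edgeR's quasi-likelihood test, Benjamini-Hochberg over 18103 genes), 1 higher and 1 lower, where 23.3% of all genes passed. The count is about that of the background. The median over the 9 members was 0.04 on the log2 scale, and over all genes -0.00.

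Adcy6 had 65.5, 74.1 and 73.8 CPM in isoproterenol-treated cells with the Cre virus, against 91.7, 84.4 and 95.3 CPM without agonist. With the empty virus it had 71.3, 73.2 and 76.1 CPM with isoproterenol, against 84.8, 85.9 and 96.9 CPM without. All 6 stimulated libraries, up to 76.1 CPM, lay below all 6 unstimulated ones, from 84.4 CPM. The log2 change was -0.26 ± 0.05 (95% interval -0.35 to -0.17, edgeR adjusted p = 2.75e-05). It passed with the Cre virus alone, at -0.30 ± 0.07 (edgeR adjusted p = 0.000673), in a comparison with 14.3% of genes called. With the empty virus alone it also passed, at -0.22 ± 0.07 (adjusted p = 0.0164), where 14.7% of genes were called. That last call was lost without replicate 1 or replicate 2 of the stimulated or without replicate 3 of the unstimulated empty-virus group, with an adjusted p of up to 0.165.

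Adcy5 had 20.2, 18.5 and 23.3 CPM in isoproterenol-treated cells with the Cre virus, against 19.7, 20.0 and 17.4 CPM without agonist. With the empty virus it had 21.8, 19.8 and 21.8 CPM with isoproterenol, against 16.2, 17.8 and 17.0 CPM without. The groups were apart with the empty virus and overlapped with the Cre virus. The log2 change over both viruses was 0.27 ± 0.07 (95% interval 0.13 to 0.41, edgeR adjusted p = 0.00387). It was 0.38 ± 0.10 with the empty virus (edgeR adjusted p = 0.00703) and 0.16 ± 0.10 with the Cre virus (adjusted p = 0.349). The difference between the viruses, -0.22 ± 0.14, did not pass (edgeR adjusted p = 1), so the response is not shown to depend on the biosensor. Neuronal markers summed to 120 to 139 CPM with isoproterenol, against 108 to 128 CPM without, and 3 of 8 of them rose. Most of that sum was Stmn2, at a median of 92.6 CPM. Of astrocyte markers 4 of 9 rose, where 23.3% of all genes passed in either direction. Oligodendrocyte lineage markers had 2 higher and 1 lower of 7, fibroblast markers 2 higher and 1 lower of 9. Of smooth muscle markers 1 of 6 rose and 1 fell, 1 of 6 ependymal markers rose and 1 of 9 microglial markers fell. The part of these markers in the Adcy5 change was not tested.

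Set against each other in the same library, the levels of the pair lay closer together with isoproterenol. The level of Adcy5 per kb was 23.6 to 29.8% of that of Adcy6 in the 6 isoproterenol-treated libraries, with a median of 27.9%. In the 6 libraries without agonist it was 16.6 to 22.3%, with a median of 18.8%, and the groups did not overlap. This ratio restates the changes of Adcy5 and Adcy6 in the same libraries and adds no separate support. Adcy6 made up 27.3 to 29.5% of the summed cyclase level with isoproterenol, against 31.9 to 34.9% without, and was still the highest isoform. The summed level itself was 35.4 to 39.5 CPM per kb with isoproterenol, against 38.0 to 41.1 CPM per kb without, and the groups overlapped.

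**Figure D3:**
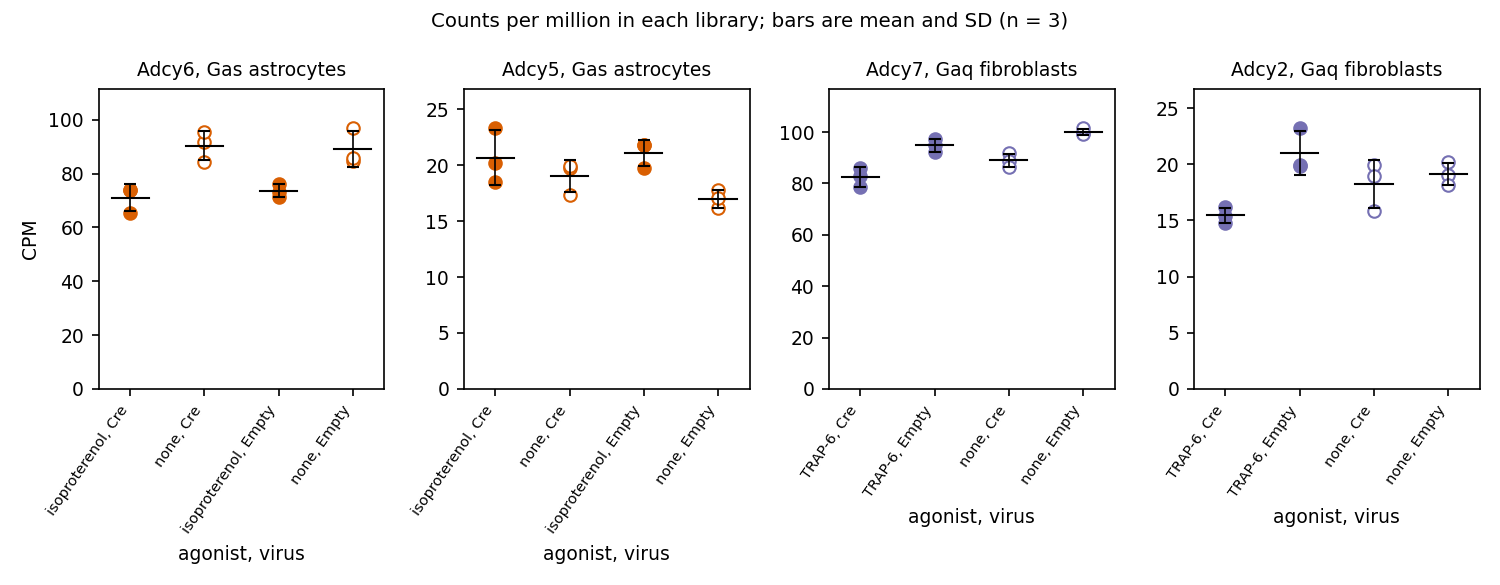
CPM in each library (points) with group means and SD (horizontal lines and error bars, n = 3) for Adcy6 and Adcy5 in Gas astrocytes and for Adcy7 and Adcy2 in Gaq fibroblasts. Adcy6 is at or below 76.1 CPM in the 6 isoproterenol libraries and at or above 84.4 CPM in the 6 untreated ones, and Adcy7 is at or below 91.8 CPM in the 6 Gaq libraries with the Cre virus and at or above 92.3 CPM in the 6 with the empty virus.

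The other 7 cyclases of the astrocytes did not pass. Adcy2 came closest, at 0.12 ± 0.05 (edgeR adjusted p = 0.0841), with 38.6, 33.1 and 35.7 CPM in isoproterenol-treated cells with the Cre virus, against 35.6, 33.8 and 35.8 CPM without agonist. With the empty virus it had 37.1, 40.7 and 39.2 CPM with isoproterenol, against 36.3, 35.0 and 36.2 CPM without, and the groups were apart with that virus alone. It passed when replicate 2 of the stimulated Cre group was left out, at 0.15 (adjusted p = 0.0455). Adcy1, Adcy3, Adcy7, Adcy8 and Adcy9 had estimates between -0.04 and 0.09. Adcy4, on 5 to 28 reads per library, had -0.24 with a standard error of 0.34, too wide an error to place it.

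Promoter sequence was available for Adcy5 in the RefSeq table (build GRCm38.p6), in which 7 of the 9 members matched. Adcy6 and Adcy8 did not, so the counts of windows say nothing of them. Cyclic AMP acts on transcription through CREB, which binds the cyclic AMP response element TGACGTCA or its short core TGACG. The window of 250 bases before each annotated start was searched on both strands. The full element was in 0 of 10 windows of the members and in 1.55% of 32851 windows of all genes. The short core, which also lies within the full one, was in 2 of 10 windows, of Adcy7 and of Adcy9, and in 17.8% of all windows. The windows of Adcy5, the cyclase that rose with isoproterenol, and of Adcy9, which holds the short core 24 bases before the start, are given 5′ to 3′ on the gene's strand, with the core in capitals. The Adcy5 window lies at chr16:35154614-35154863 on the plus strand, and the Adcy9 window at chr16:4420499-4420748 on the minus strand.
Adcy5: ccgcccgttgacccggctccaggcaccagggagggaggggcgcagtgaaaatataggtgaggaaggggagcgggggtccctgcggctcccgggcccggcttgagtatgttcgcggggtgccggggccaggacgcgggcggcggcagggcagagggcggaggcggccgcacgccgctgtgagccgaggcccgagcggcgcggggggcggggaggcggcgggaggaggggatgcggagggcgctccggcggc
Adcy9: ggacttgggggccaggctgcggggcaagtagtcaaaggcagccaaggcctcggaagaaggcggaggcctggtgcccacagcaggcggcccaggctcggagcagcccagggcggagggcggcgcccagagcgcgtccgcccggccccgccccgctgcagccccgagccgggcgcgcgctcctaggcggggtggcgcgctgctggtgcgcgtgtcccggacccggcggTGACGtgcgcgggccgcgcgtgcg
Both are rich in G and C, at 78% for Adcy5 and 78.8% for Adcy9. Adcy9, with the core, had a log2 change of 0.09 ± 0.08 with isoproterenol (edgeR adjusted p = 0.468), and Adcy5, without it, passed the test. A match or its lack in this window is a description of the letters only.

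With TRAP-6, 1 cyclase passed the test in 1 of the 3 fibroblast lines, and none in the others. In Gai fibroblasts 0 of 9 cyclases passed, where 1.12% of all genes did, and DESeq2 called none. None had an unadjusted p under 0.05 there, where 1543 of 15980 genes did. In Gaq fibroblasts 0 of the 8 tested passed, where 5.61% of all genes did, and DESeq2 called none. Again none had an unadjusted p under 0.05, where 2467 of 15528 genes did, and Adcy8 was too low to be tested there. For Adcy6, the highest isoform, the log2 change was 0.01 ± 0.04 (95% interval -0.09 to 0.10) in Gai, -0.02 ± 0.03 (-0.09 to 0.05) in Gaq and 0.01 ± 0.03 (-0.06 to 0.08) in Ga13 fibroblasts. For Adcy7, the next highest, it was -0.08 ± 0.05 (-0.20 to 0.03) in Gai, -0.06 ± 0.04 (-0.13 to 0.02) in Gaq and -0.10 ± 0.04 (-0.18 to -0.02, edgeR adjusted p = 0.127) in Ga13 fibroblasts. The 3 intervals of Adcy6 were not compared with that of the isoproterenol change in astrocytes. Cell type, tissue, mouse line with its allele, virus dilution and agonist differ together.

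In Ga13 fibroblasts 1 of 9 cyclases passed, where 8.38% of all genes did. At an unadjusted p under 0.05 stood 2, Adcy5 and Adcy7, where 3061 of 15835 genes did, and DESeq2 called 0. The one that passed was Adcy5, which is low in these cells. It had 9.41, 8.0 and 11.7 CPM with TRAP-6 and the Cre virus, against 6.46, 7.24 and 7.86 CPM without agonist. With the empty virus it had 6.88, 8.73 and 10.1 CPM with TRAP-6, against 7.75, 7.08 and 8.67 CPM without. The groups were apart with the Cre virus and overlapped with the empty virus. The log2 change was 0.33 ± 0.11 (95% interval 0.11 to 0.54), at an edgeR adjusted p of 0.0499. It was 0.48 ± 0.14 with the Cre virus alone (edgeR adjusted p = 0.0451), where 5.37% of genes passed. The call with Cre was lost in 4 of 6 fits that left out 1 library, with an adjusted p of up to 0.302, and DESeq2 called 0 cyclases there. It was 0.17 ± 0.15 with the empty virus (adjusted p = 0.739), where 3.88% of genes passed. The difference between the viruses, 0.31 ± 0.21, did not pass (adjusted p = 0.79). The call over both was weak, since DESeq2 gave an adjusted p of 0.0841 and leaving out 1 library ended it in all but 4 of 12 fits, with an adjusted p of up to 0.196. Adcy5 had 0.18 ± 0.09 in Gaq fibroblasts (edgeR adjusted p = 0.335) and -0.01 ± 0.12 in Gai fibroblasts (adjusted p = 0.991). Adcy7 in Ga13 fibroblasts had 64.7, 62.3 and 60.8 CPM with TRAP-6 and the Cre virus, against 66.7, 68.4 and 60.0 CPM without agonist. With the empty virus it had 59.2, 59.3 and 56.7 CPM with TRAP-6, against 67.4, 64.8 and 71.8 CPM without. The groups were apart with the empty virus, at -0.18 ± 0.06 (edgeR adjusted p = 0.0631), which did not pass, and overlapped with the Cre virus, at -0.02 ± 0.05. A test of whether the TRAP-6 response differed between the 3 lines called 0 of 9 cyclases by edgeR and 0 by DESeq2. By edgeR 0.299% of all genes were called. At an unadjusted p under 0.05 stood 0 cyclases, where 1089 of 16749 genes did.

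**Figure D4:**
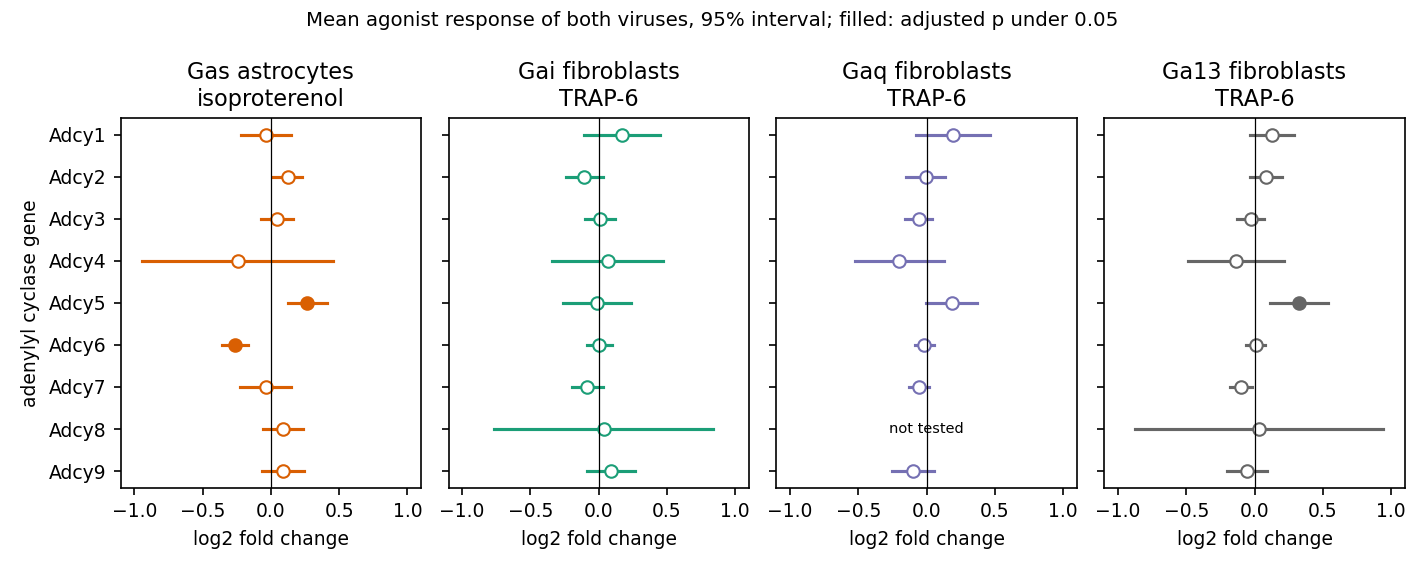
Log2 change with agonist, averaged over both viruses, for each cyclase in each line, with 95% intervals and filled points where the edgeR adjusted p is under 0.05. Adcy6 at -0.26 and Adcy5 at 0.27 are filled in Gas astrocytes and Adcy5 at 0.33 in Ga13 fibroblasts, and the widest intervals belong to Adcy8 in fibroblasts and Adcy4 in astrocytes.

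Whether the agonist response differed between the viruses was tested in each line, and no cyclase passed by edgeR or DESeq2. There 0% of all genes passed in Gas astrocytes and in Gai fibroblasts, 0.161% in Gaq and 0.0821% in Ga13 fibroblasts. At an unadjusted p under 0.05 stood 0 cyclases in Gas and Gai cells, where 631 of 18103 and 345 of 15980 genes did. There was 1 of 8 in Gaq fibroblasts, where 1062 of 15528 genes did, and 2 of 9 in Ga13, where 1214 of 15835 did.

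The viruses gave the next comparison, Cre against empty, which asks whether switching on the biosensor went with a change in the cyclases. In Gaq fibroblasts 2 of the 8 cyclases tested were lower with the Cre virus, Adcy7 and Adcy2, both of the Gβγ-stimulated group (edgeR's quasi-likelihood test, Benjamini-Hochberg over 15528 genes). There 6.5% of all genes passed in either direction and 2.83% were lower. At an unadjusted p under 0.05 stood 3 cyclases, where 2557 of 15528 genes did. Adcy4, the other member of that group, did not pass and had higher means with the Cre virus. It had 2.79 CPM with TRAP-6 and the Cre virus, against 2.24 CPM with TRAP-6 and the empty virus. Without agonist it had 3.12 CPM with the Cre virus, against 2.79 CPM with the empty virus. Adcy7 had 82.7, 78.5 and 86.1 CPM with TRAP-6 and the Cre virus, against 92.3, 97.3 and 94.8 CPM with TRAP-6 and the empty virus. Without agonist it had 91.8, 88.8 and 86.5 CPM with the Cre virus, against 99.7, 99.4 and 102 CPM with the empty virus. The 6 libraries with the Cre virus all lay below the 6 with the empty virus. The log2 difference was -0.18 ± 0.04 (edgeR adjusted p = 0.000973) and passed in 12 of 12 fits that left out 1 library. With TRAP-6 alone it passed, where 3.41% of genes did. That call was lost in 4 of 6 fits that left out 1 library, with an edgeR adjusted p of up to 0.177. Without agonist it did not pass, where 2.65% of genes did.

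Adcy2 had 14.8, 16.2 and 15.4 CPM with TRAP-6 and the Cre virus, against 19.8, 19.9 and 23.2 CPM with TRAP-6 and the empty virus. Without agonist it had 15.8, 19.9 and 18.9 CPM with the Cre virus, against 20.2, 19.1 and 18.2 CPM with the empty virus. The groups were apart with TRAP-6 and overlapped without it. The log2 difference over both was -0.25 ± 0.07 (edgeR adjusted p = 0.0238). It was -0.43 ± 0.10 with TRAP-6 (edgeR adjusted p = 0.00926), where 3.41% of genes passed, and -0.07 ± 0.10 without (adjusted p = 0.856), where 2.65% did. The difference between these, -0.36 ± 0.14, did not pass (edgeR adjusted p = 0.633). The call for Adcy2 over both was lost without replicate 1 of the unstimulated empty, unstimulated Cre or stimulated Cre group or replicate 3 of the stimulated empty group, with an adjusted p of up to 0.112.

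Other measures moved with the Cre virus in the Gaq line. Fibroblast markers summed to 42079 to 47150 CPM with the Cre virus, against 36600 to 39571 CPM with the empty virus, and 8 of 9 were higher. Mesothelial markers summed to 466 to 561 CPM with the Cre virus, against 363 to 469 CPM with the empty virus, 2 of 5 being higher, and 3 of 6 smooth muscle markers were higher. Of 7 astrocyte markers tested 2 were higher and 1 lower, of 5 oligodendrocyte lineage markers 1 was higher and 1 lower, and 1 of 6 macrophage markers was higher. Of all genes 6.5% passed in either direction. Their part in the Adcy7 and Adcy2 differences was not tested. In the other 3 lines 0 of 9 cyclases passed by edgeR or DESeq2 and 0 had an unadjusted p under 0.05. There 0.0608% of all genes passed in Gas astrocytes, 0.0125% in Gai and 0.0568% in Ga13 fibroblasts. In the same order, 1249 of 18103, 459 of 15980 and 808 of 15835 genes had an unadjusted p under 0.05.

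The genes around the cyclases were read from 6 lists with 79 genes. In Gas astrocytes 18 rose and 7 fell with isoproterenol among 70 tested, where 23.3% of all genes passed, with a median of 0.07 on the log2 scale, against -0.00 over all genes. Cyclic AMP phosphodiesterases, the enzymes that break cyclic AMP down, had 7 higher and 1 lower of 15. Pde4d had 221 to 260 CPM with isoproterenol, against 24.4 to 52.7 CPM without, a log2 change of 2.91 ± 0.21 (edgeR adjusted p = 7.2e-06). Pde3b rose by 0.63 ± 0.07 and Pde7a by 0.59 ± 0.06, and Pde1b, a calmodulin-stimulated enzyme, fell by 0.38 ± 0.05, each with an adjusted p under 0.05 by the same test.

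Among receptors that couple to Gs, 2 rose and 4 fell of 14. Adrb1, the β1-adrenergic receptor, had 24.7 to 29.9 CPM with isoproterenol, against 53.5 to 84.0 CPM without, a change of -1.33 ± 0.09 (edgeR adjusted p = 1.35e-07). Adrb3, the β3-adrenergic receptor, had 5.25 to 7.50 CPM with isoproterenol, against 2.57 to 3.67 CPM without, a change of 1.12 ± 0.13 (adjusted p = 1.51e-08). Gpr3, a receptor that raises cyclic AMP without an added ligand, rose by 1.42 ± 0.08.

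Of the cyclase regulators 4 rose and 1 fell of 18. Rgs2, which inhibits cyclases as well as Gαq, had 174 to 196 CPM with isoproterenol, against 37.5 to 48.4 CPM without, a change of 2.12 ± 0.04 (edgeR adjusted p = 1.35e-29). Ric8b, a chaperone of Gαs, rose by 0.42 ± 0.06. Prkar2a and Prkar1a, regulatory subunits of protein kinase A, rose by 0.45 ± 0.04 and 0.10 ± 0.03, 2 of 9 of that list, and none of it fell. Of 7 Gα genes 2 rose and 1 fell, and Gnas, which encodes Gαs, changed by 0.11 ± 0.03, with 1296 to 1489 CPM with isoproterenol, against 1184 to 1330 CPM without. Of 7 other cyclic AMP effectors Rapgef4, which encodes Epac2, rose by 0.25 ± 0.08. The changes of Adcy5 and Adcy6 were of the size of these smaller ones.

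In the fibroblasts TRAP-6 changed 0 of 65 tested genes of the lists in the Gai line, where 1.12% of all genes passed. In the Gaq line 4 were higher and 2 lower of 62, where 5.61% passed, and in the Ga13 line 4 were higher and 4 lower of 63, where 8.38% passed. Rgs2 rose in both the Gaq and the Ga13 line, by 1.19 ± 0.10 in Gaq (8.47 to 17.4 CPM with TRAP-6, against 4.58 to 7.14 CPM without) and by 1.05 ± 0.13 in Ga13 (4.80 to 7.92 CPM with TRAP-6, against 2.44 to 4.23 CPM without). Akap5, an anchoring protein that holds protein kinase A next to cyclases, fell by 0.30 ± 0.08 in Gaq and 0.41 ± 0.07 in Ga13 fibroblasts.

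Over the 12 astrocyte libraries the gene whose log2 CPM was most like that of Adcy5, among 13451 genes, was Pdzrn3 (Pearson r 0.869), followed by Tmem132e (0.852) and Fam169a (0.850). For Adcy6, Tnrc18 (0.972) and Frmd4a (0.971) were among the 3 most alike. These libraries share the 2 agonist states, so the likeness includes the response itself, and it is given as a description. Tnrc18 changed by -0.47 ± 0.08 and Frmd4a by -0.50 ± 0.05 with isoproterenol, more than Adcy6 did.

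Some of these counts carry an uncertainty from overlapping genes, since the sources used here do not say whether counting used the strand. In the GRCm38 annotation exons of Adcy6, Adcy3 and Adcy2 overlap with exons on the other strand, of Gm29331, Cenpo and Gm35161. Cenpo had 1.96 to 6.99 CPM over all libraries and Gm35161 at most 0.411 CPM, and Gm29331 had no entry under that symbol in the deposited counts. Such an overlap on the other strand is also annotated for Gnas, Gpr3, Adrb3, Pde7a and Rapgef4 of the lists and for Fam169a and Frmd4a. Between the cyclases themselves the longest stretch shared by any 2 transcripts was 33 bases, between Adcy4 and Adcy8.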

How the data were processed

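The deposited values are raw counts of reads per gene, in 4 tables of 12 libraries each. Per the submitters' processing notes the authors used fastp, Subread's aligner and featureCounts on build GRCm39, and the versions, annotation and use of strand are not given in the sources used here. Poly(A) RNA was primed with random hexamers, per the labels' protocols. The 9 cyclases and the gene lists were chosen with earlier results of these data known. Per line, genes passing edgeR's filter by group were fitted with a robust quasi-likelihood model on 4 groups with TMM scaling, and p-values were adjusted over all genes tested with the Benjamini-Hochberg method, at a threshold of 0.05. Cell types were compared in a fit over 48 libraries and fibroblast lines in one over 36. The scripts were tested on simulated data. Levels between genes are CPM per kb of exon (GENCODE M21, GRCm38, which is not the build of the counts), over 4.211 kb for Adcy2 to 12.522 kb for Adcy1. Genes named beside the cyclases were, of each list, up to 4 in astrocytes and 2 in fibroblasts with the smallest p among those that passed, and for likeness 3 genes for each cyclase called in astrocytes, of genes averaging at least 1 CPM, on log2 CPM with a prior count of 2. The resting state means the empty virus without agonist. Alternatives were DESeq2, RLE scaling, total counts alone, no filter, the replicate block, leaving out each library, and the longest transcript in place of the exon union. Some genes that the rule for genes beside the cyclases names are not reported here.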

Additional observations from a re-analysis of the deposited data

How the results depend on the processing

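The calls for Adcy6 and Adcy5 in astrocytes with isoproterenol and for Adcy7 in Gaq fibroblasts with the Cre virus passed under every alternative tried, over both agonist states or viruses, and in each fit that left out 1 library. The count for astrocytes was 2 to 3 over those fits. In Ga13 fibroblasts the count with TRAP-6 was 1, and 0 with DESeq2 or RLE scaling (Adcy5 at an adjusted p of 0.0841 and 0.0504), and 0 to 1 leaving out 1 library; with total counts alone Adcy7 was called in place of Adcy5, at -0.14. In Gaq fibroblasts leaving out 1 library gave 1 to 2 cyclases called for Cre. With the replicate number as a block, 1 cyclase was called with TRAP-6 there (Adcy1, 0.20, adjusted p = 0.0435) and 3 for Cre, and 7 between the resting fibroblast lines, against 6 in the fit without the block. The block moved the count of all genes in Gai with TRAP-6 to 797, against 179. Same-numbered libraries correlated at 0.298 to 0.368 for number 1 of the Gai line and between -0.0183 and 0.172 otherwise, and in no line was every pair over 0.1, the bar for pairing. Libraries correlated best with their own number in 11 of 12 Gas, 5 of 12 Gai, 9 of 12 Gaq and 11 of 12 Ga13 libraries, a hint from the data and not from the design. Without the 4 Gai libraries numbered 1, an alternative chosen after seeing the data, 5 cyclases differed between the resting lines, and leaving out 1 library gave 4 to 6 there. By pairs, leaving out 1 library gave 2 to 4 between Gai and Ga13, 4 to 6 between Gai and Gaq and 2 to 3 between Gaq and Ga13. Leaving out 1 library also gave 0 to 2 for Cre in stimulated Gaq fibroblasts, 0 to 1 for TRAP-6 with Cre in Ga13 fibroblasts and 1 to 2 for isoproterenol with the empty virus. With total counts alone, also chosen after seeing the data, 9 cyclases differed between astrocytes and fibroblasts, and Adcy1 (0.46) and Adcy9 (0.41) changed sign. Per kb of the longest transcript Adcy6 stood at 14.8 in Gas, 17.5 in Gai, 20.2 in Gaq and 19.4 in Ga13 cells, and the order of isoforms at rest was the same. Adcy8 in fibroblasts and Adcy4 in astrocytes rest on few reads, so only large changes could have been seen.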
